A study of Mus musculus with 12 samples.

Results

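Mitochondrial ribosomal protein genes were followed across hippocampal RNA libraries of wild-type mice and of mice lacking NONO. They were taken by symbol, as every gene whose name starts with Mrpl or Mrps followed by a digit, which gave 76 of the 23329 genes counted: 47 with a large subunit name (Mrpl) and 29 with a small subunit name (Mrps). Mrps36 matches the names, although its protein is now placed in the alpha-ketoglutarate dehydrogenase complex. The rule uses names and no measured value, although the gene family was picked with earlier results of these data known. All 76 passed the filter on low counts that left 14131 genes for testing. The study sequenced polyadenylated RNA from the hippocampus of adult C57BL/6 mice. Its 12 libraries form 4 groups of 3: wild type (WT) and NONO knockout (KO), each sampled under a label CT10 or CT22, an abbreviation that is not explained there. The design of the KO allele is not given, and no label ties libraries to single animals. The p-values therefore rest on the spread among libraries, part of which may be technical. NONO is a nuclear protein that binds RNA and DNA and is known as a component of paraspeckles and as a partner of the circadian PERIOD proteins.

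Mitochondria carry their own ribosomes, which make the few proteins encoded in mitochondrial DNA, all of them membrane subunits of the respiratory chain and the ATP synthase. The RNA of these ribosomes is encoded in mitochondrial DNA, but every protein of the particle is encoded in the nucleus, translated in the cytosol and imported. Some of these proteins descend from those of the bacterial ribosome, and others were added in the mitochondrial lineage. Neurons depend on the respiratory chain for most of their ATP.

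The labels and libraries were checked first. Nono was counted 1147 to 1814 times in each WT library and 0 to 4 times in each KO library. Neuronal, astrocyte, microglial and oligodendrocyte markers were detected in all 12 libraries. Library totals ran from 4435596 to 10911031 counts. The libraries labelled KO CT10 replicate 3 and KO CT22 replicate 1 went against their CT labels in clock genes: Dbp, a target of the clock, stood at 33.6 CPM (counts scaled to the size of the library) in the first against 70.5 to 105.6 CPM in the other CT10 libraries, and at 90.9 CPM in the second against 32.3 to 59.6 CPM in the other CT22 libraries. Ttr, a choroid plexus marker, ranged from 54.5 to 3454 CPM, and all 14 choroid plexus markers had a higher KO than WT estimate over both CT labels, none of them past the threshold. Summed over these markers, the libraries ran from 339 to 2088 CPM in WT CT10, 375 to 4874 in KO CT10, 399 to 2184 in WT CT22 and 233 to 5298 in KO CT22, so the groups overlapped, and none of the markers was at 0 in any library. The part of choroid plexus RNA in the results below was not tested by itself. With a choroid plexus score as a covariate, the members' median log2 change of KO against WT was -0.057 over both CT labels, against -0.055 without it.

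Levels of the members were compared per transcript length, in TPM (transcript abundance relative to all transcripts of the library), as means over 12 libraries. The median member stood at 63.5 TPM, against 23.6 TPM for the median gene tested. The highest members were Mrps21 at 190 ± 20.3 TPM (SD, n = 12), Mrpl20 at 180 ± 16.5, Mrpl12 at 164 ± 16.3, Mrpl30 at 146 ± 10.2 and Mrpl42 at 140.5 ± 11.3. The SDs of neighbours in this order overlapped. Mrps21 and Mrpl20 encode relatives of bacterial ribosomal proteins, and Mrpl12 encodes the protein of the flexible stalk that recruits translation factors. The lowest were Mrpl1 at 12.5 ± 1.70 TPM, Mrpl17 at 12.6 ± 0.773, Mrps25 at 14.4 ± 1.11, Mrpl19 at 17.2 ± 1.11 and Mrpl15 at 17.9 ± 1.29. The highest and lowest member thus differed 15.2-fold in this measure, which divides by transcript length. These 5 low members and Mrpl35 are the 6 whose longest transcript is over 3000 bases, and the other 70 lie above them in TPM. Without division by length, the mean over the WT libraries was 35.8 CPM for Mrps25 and 27.2 CPM for Mrps21, the reverse of their order in TPM. Large subunit names had a median of 67.9 TPM and small subunit names a median of 54.9 TPM. The spread within groups was smallest for Mrpl39 and Mrps2, with coefficients of variation of 3.82% and 4.64%, and largest for Mrps28 and Mrpl33, with 23.2% and 22.4%. The latter pair encode a small subunit protein and the relative of bacterial L33. The median coefficient of variation over the 76 members was 10.97%.

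**Figure D1:**
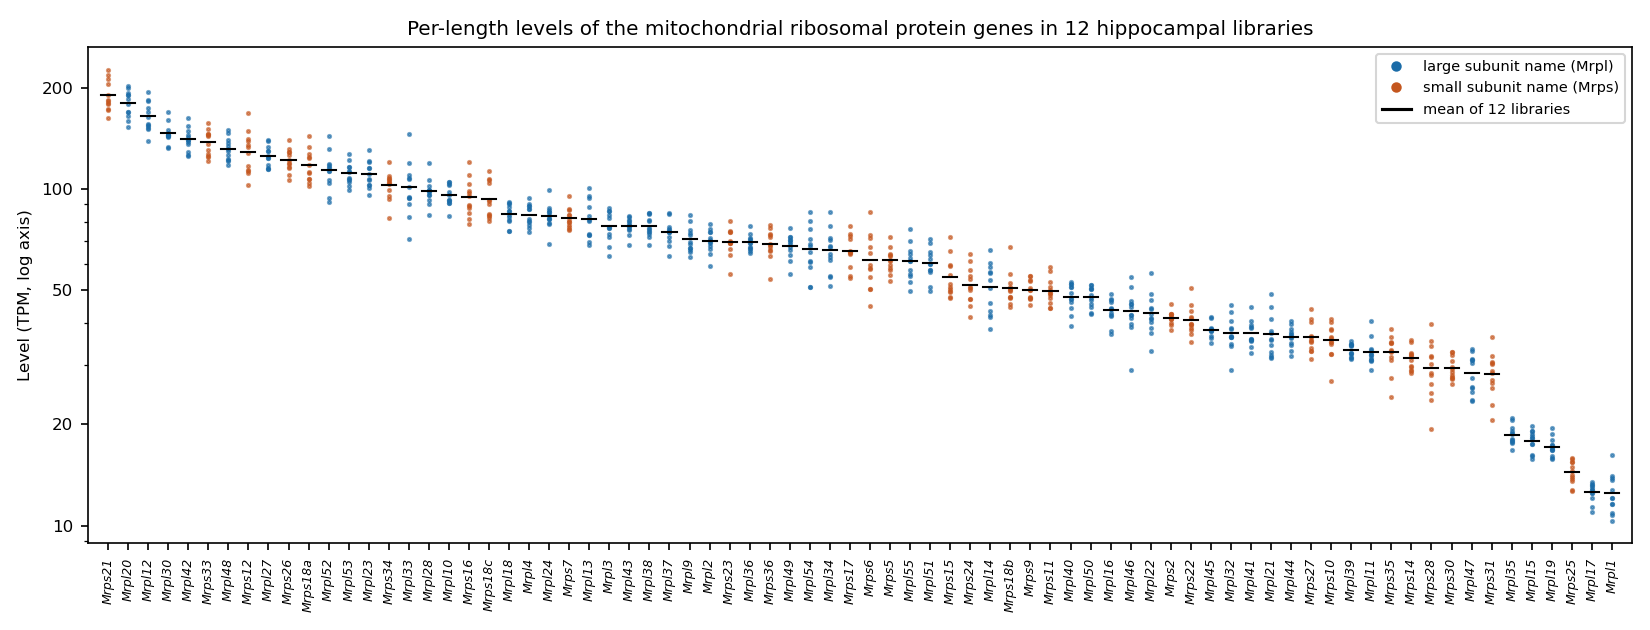
Level of each of the 76 members in TPM (log axis), 1 point per library, with the mean of the 12 libraries as a black line and the subunit name as colour. Means run from 190 TPM for Mrps21 to 12.5 TPM for Mrpl1, with a step down to the 6 members of longest transcripts at the right.

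The members lie on 17 chromosomes, with 10 on chromosome 11 and at most 8 on any other, so they do not all lie at a single locus. By the start sites in the files (build mm10), 26 members (34.2%) have another gene starting within 1000 bases on the opposite strand, pointing away from it, against 2131 of all 23329 genes (9.13%). All members passed the filter on low counts, but the 23329 genes include those that did not, so this difference may not be particular to the members. A pair of members, Mrpl46 and Mrps11, start 42 bases apart on chromosome 7, at positions 78783089 and 78783131. The other partners have mixed functions, and the examples here were picked after the pairs were seen. Sars2, the mitochondrial seryl-tRNA synthetase, starts 187 bases from Mrps12, and Ndufb5, a complex I subunit, 308 bases from Mrpl47. Hira, a histone chaperone, starts 113 bases from Mrpl40, Tcp1, a subunit of the cytosolic chaperonin, 374 bases from Mrpl18, and Psma2, a proteasome subunit, 205 bases from Mrpl32. Of the 23 partners that were tested, 0 passed the threshold in KO against WT over both CT labels (edgeR, all genes 0.0212%). Of the 23 partners, 14 were lower and 9 higher (the share of all genes is given with the members below), and their median log2 change was -0.033. These include Mrpl46 and Mrps11, members that are each other's partner and were both lower.

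Promoter sequence was available from RefSeq (build GRCm38.p6) for 67 of the 76 members, as windows from 250 bases before to 50 after each start. Mrps28, Mrpl4, Mrpl54, Mrpl38, Mrps34, Mrpl19, Mrpl13, Mrpl15 and Mrps35 were not matched. Exact words were searched on both strands: GCGCATGCG, the core of the NRF1 motif, was in 7 of 67 members (10.4%) against 1.95% of all 27025 genes with a promoter, CCGGAAG, a motif of ETS factors such as GABP, in 24 (35.8%) against 9.93%, and AAGATGGCG, a YY1 motif, in 8 (11.9%) against 1.64%. NRF1, GABP and YY1 are textbook regulators of nuclear genes for mitochondrial proteins. At least 1 of the 3 words was in 34 members (50.7%) against 12.7% of all genes. The genes with a promoter were not limited to those that passed the filter on low counts, as all members did. The differences in share may therefore not be particular to the members. A word is a description of the sequence, not a measured binding site. Some members had all KO libraries below the WT libraries at CT22, and of these Mrpl1 and Mrps15 hold none of the words. Any link between words and changes was not tested. Of the promoters below, those of Mrpl10, Mrps18a and Mrps27 belong to other members of that kind. That of Mrpl32 holds the NRF1 word repeatedly, and that of Mrps11 contains the start of Mrpl46 as well. Each runs from 200 bases before the start to 30 after it, 5′ to 3′ on the gene's strand, with the searched words in capitals.
Mrpl10 (chr11:97041382-97041611, plus strand): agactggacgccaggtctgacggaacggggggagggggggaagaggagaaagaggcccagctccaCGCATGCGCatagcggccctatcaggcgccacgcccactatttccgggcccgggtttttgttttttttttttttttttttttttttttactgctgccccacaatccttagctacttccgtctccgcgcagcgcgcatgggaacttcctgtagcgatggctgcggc
Mrpl32 (chr13:14613008-14613237, minus strand): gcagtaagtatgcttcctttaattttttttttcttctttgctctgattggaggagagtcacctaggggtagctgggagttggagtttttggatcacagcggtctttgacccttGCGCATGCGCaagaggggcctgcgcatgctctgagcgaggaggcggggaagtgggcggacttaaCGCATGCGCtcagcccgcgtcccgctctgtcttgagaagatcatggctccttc
Mrps18a (chr17:46110804-46111033, plus strand): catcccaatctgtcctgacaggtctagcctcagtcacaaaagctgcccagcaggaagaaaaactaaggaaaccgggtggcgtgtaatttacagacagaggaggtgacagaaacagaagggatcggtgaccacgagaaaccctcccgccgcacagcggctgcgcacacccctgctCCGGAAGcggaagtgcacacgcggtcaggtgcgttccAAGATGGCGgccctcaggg
Mrps27 (chr13:99344586-99344815, plus strand): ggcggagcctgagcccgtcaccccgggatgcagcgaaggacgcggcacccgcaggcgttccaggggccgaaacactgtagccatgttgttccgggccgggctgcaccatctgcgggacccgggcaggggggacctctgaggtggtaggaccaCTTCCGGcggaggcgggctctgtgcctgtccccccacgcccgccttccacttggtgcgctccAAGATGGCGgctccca
Mrps11 (chr7:78782931-78783160, plus strand): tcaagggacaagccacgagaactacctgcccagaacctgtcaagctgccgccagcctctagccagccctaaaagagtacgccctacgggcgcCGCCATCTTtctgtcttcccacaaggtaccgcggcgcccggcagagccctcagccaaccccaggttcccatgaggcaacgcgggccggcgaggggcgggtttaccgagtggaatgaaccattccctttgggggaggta

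The largest differences among the libraries in these genes were not between the groups. Each member's log2 CPM was expressed as a deviation from its own mean over the 12 libraries, and the deviations were averaged over the 76 members. In the WT CT10 libraries this member score was -0.043, -0.031 and 0.060, and in the KO CT10 libraries it was -0.10, 0.20 and -0.057. At CT22 it was -0.045, 0.042 and 0.18 in WT and -0.14, -0.013 and -0.051 in KO. KO CT10 replicate 2 and WT CT22 replicate 3 were thus the highest, KO CT22 replicate 1 and KO CT10 replicate 1 the lowest, and the groups overlapped at both CT labels. In KO CT10 replicate 2, 75 of 76 members stood above their own mean. The exception was Mrpl55. In WT CT22 replicate 3, 68 did, and in KO CT22 replicate 1 only 7 did: Mrpl3, Mrpl16, Mrpl19, Mrpl40, Mrps5, Mrps17 and Mrps34. The pooled SD of the score within groups was 0.11.

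**Figure D2:**
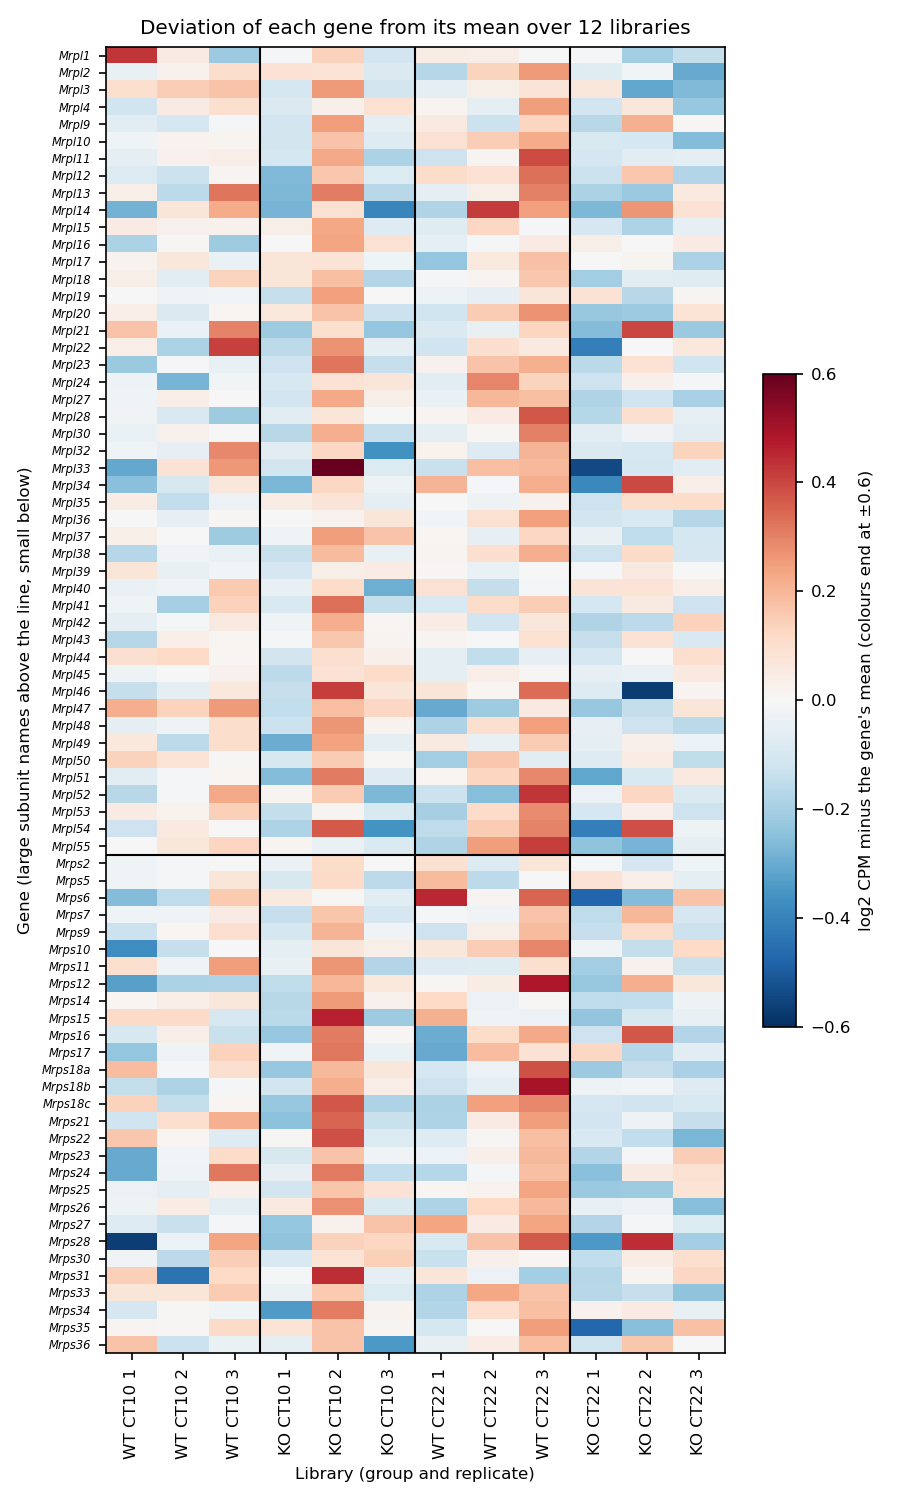
Deviation of each member (rows, large subunit names above the line) from its mean log2 CPM over the 12 libraries (columns, grouped by genotype and CT label). The columns KO CT10 2 and WT CT22 3 are red for 75 and 68 of the 76 members, and KO CT22 1 is blue for 69.

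Other short genes shared this pattern of libraries. Members are short: 45 of 76 (59.2%) have a longest transcript of at most 1200 bases, against 9.72% of all genes tested. The median deviation of 1206 other genes of that length, with cytosolic ribosomal protein and oxidative phosphorylation genes left out, was 0.17 in KO CT10 replicate 2, 0.18 in WT CT22 replicate 3 and -0.13 in KO CT22 replicate 1. For 2527 other genes over 5000 bases it was -0.16, -0.21 and 0.13 in the same libraries. The difference between short and long genes ran from -0.26 in KO CT22 replicate 1 to 0.38 in WT CT22 replicate 3, and its group means were -0.0034 in WT CT10, 0.040 in KO CT10, 0.13 in WT CT22 and -0.16 in KO CT22. At CT22 its mean was thus lower in KO, as was that of the members, but the libraries overlapped. They had -0.10, 0.11 and 0.38 in WT CT22 and -0.26, -0.040 and -0.18 in KO CT22. In KO CT10 replicate 2 the 6 members over 3000 bases had a mean deviation of 0.16. They had 0.083 in WT CT22 replicate 3 and -0.063 in KO CT22 replicate 1. In each of these libraries they lay on the opposite side of 0 from the other genes over 5000 bases, a longer class. In KO CT10 replicate 2, the mean deviation was 0.20 for 77 cytosolic ribosomal protein genes and 0.20 for 79 nuclear oxidative phosphorylation genes. In the results below, the length difference was set as a covariate, and the 2 libraries where it was highest were left out, both chosen after seeing the data. Over the 12 libraries it correlated with the member score at r = 0.98. A covariate this close to the score cannot separate transcript length from a change of the members themselves. The part of transcript length was therefore not tested.

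**Figure D3:**
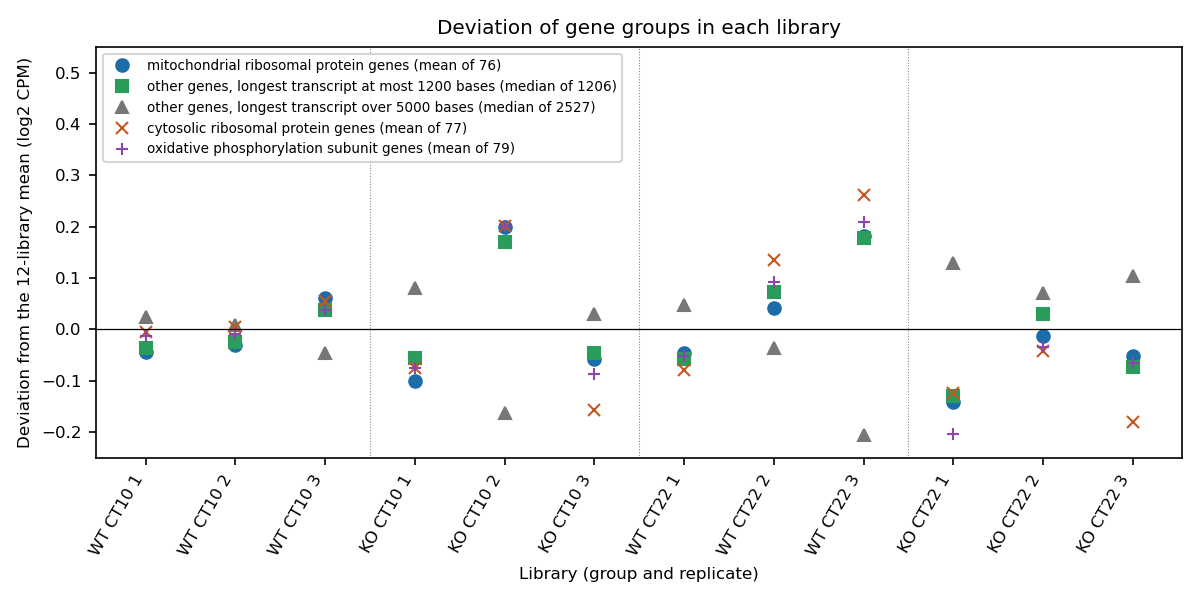
Deviation from the 12-library mean (log2 CPM, vertical axis) of 5 gene groups in each library (horizontal axis): means for the members, cytosolic ribosomal protein genes and oxidative phosphorylation genes, medians for other short and other long genes. Members and other short genes are highest in KO CT10 2 and WT CT22 3 and lowest in KO CT22 1, where the other long genes (triangles) lie on the opposite side of 0.

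The first question was whether loss of NONO changed the members over both CT labels. No member passed the threshold: 0 of 76 had an edgeR adjusted p under 0.05, against 3 of 14131 genes (0.0212%), 1 of them Nono itself. With DESeq2 the count was also 0. At an unadjusted p under 0.05 there were 3 members (3.95%), fewer than the 6.35% of all genes. By sign, 58 members were lower in KO and 18 higher, with a median log2 change of -0.055, whereas 48.2% of all genes were lower and their median was 0.0051. The 95% intervals of all 76 members lay between -0.49 (Mrpl14) and 0.38 (Mrps31), so none reached a log2 change of 0.5 in size in either direction. In bulk tissue, fewer cells of a type and less RNA per cell cannot be told apart. Without the 2 KO libraries whose clock genes went against their labels, the median was -0.018, with 50 members lower, and without WT CT22 replicate 3 or KO CT10 replicate 1 it was -0.027 or -0.026. With the length difference as a covariate the median was 0.017, with 31 members lower and 45 higher. Other genes of at most 1200 bases had a median of -0.050 without that covariate, and other genes over 5000 bases one of 0.080.

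Large subunit genes came closest to the threshold. Mrpl10, whose protein anchors the stalk to the large subunit, had 61.5, 63.5 and 63.3 CPM in WT CT10 and 57.9, 70.4 and 59.3 CPM in KO CT10. At CT22 it had 66.6, 69.3 and 73.0 CPM in WT and 58.7, 58.0 and 52.2 CPM in KO. The genotypes overlapped at CT10, where KO replicate 2 was above every WT library, and did not overlap at CT22. Over both CT labels its log2 change was -0.16 ± 0.065 (SE, n = 6 and 6 libraries; edgeR adjusted p = 0.73, the smallest of the members). The other stalk genes had smaller estimates with larger errors, -0.11 ± 0.085 for Mrpl12 and -0.10 ± 0.095 for Mrpl11, which encodes the protein at the stalk base.

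Mrpl55, a large subunit gene without a bacterial relative, had the lowest estimate. It stood at 17.5, 18.3 and 19.1 CPM in WT CT10, 17.7, 17.0 and 16.4 in KO CT10, 15.4, 20.9 and 23.4 in WT CT22 and 14.7, 14.3 and 16.8 in KO CT22. The genotypes overlapped at both CT labels, and WT CT22 replicate 1 lay within the KO range. Its log2 change was -0.24 ± 0.10 (edgeR adjusted p = 0.73). At the other end, Mrpl16, the relative of bacterial L16, had 16.2, 18.6 and 16.0 CPM in WT CT10 against 18.6, 21.96 and 19.8 in KO CT10, and 17.8, 18.4 and 19.2 in WT CT22 against 19.0, 18.6 and 19.2 in KO CT22. KO libraries were mostly higher at CT10, with WT replicate 2 just above KO replicate 1, and the genotypes overlapped at CT22. Its log2 change was 0.14 ± 0.079, the highest of the members (edgeR adjusted p = 0.81). Mrpl14, a relative of bacterial L14, had -0.19 ± 0.14 and Mrpl35, a relative of bacterial L35, had 0.050 ± 0.072.

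Among small subunit names, Mrps33 had 57.1, 57.2 and 60.4 CPM in WT CT10, 52.9, 60.7 and 51.3 in KO CT10, 47.7, 63.9 and 61.3 in WT CT22 and 48.4, 49.3 and 45.9 in KO CT22. A single library in each pair, KO CT10 replicate 2 and WT CT22 replicate 1, made the genotypes overlap. Its log2 change was -0.18 ± 0.077 (edgeR adjusted p = 0.75). Mrps6, which encodes a relative of bacterial S6, had -0.19 ± 0.12 over both labels, Mrps12, whose protein lies at the decoding centre, 0.045 ± 0.10, Mrps17 0.048 ± 0.10 and Mrps31 0.11 ± 0.12. The 3 genes related to bacterial S18 differed in level and estimate: Mrps18a, whose protein sits in the large subunit in spite of its name, had -0.18 ± 0.095, Mrps18c -0.12 ± 0.12 and Mrps18b -0.0073 ± 0.11. Per length, Mrps18a stood at 118 ± 12.8 TPM over the 12 libraries (SD), Mrps18c at 93.3 ± 11.5 and Mrps18b at 50.9 ± 5.998. The differences among the 3 changes were not tested.

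By role, with sides taken from the known structure of the particle, 25 of 29 large subunit genes with a bacterial relative were lower in KO over both CT labels (median log2 change -0.090), 12 of 19 without one (-0.037), 12 of 16 small subunit genes with a bacterial relative (-0.029) and 8 of 11 without one (-0.066). Mrps30 was counted with the large subunit, where its protein sits, and Mrps18a was left out of these 4 classes. The last class includes Mrps36, placed by its name alone, and Mrps28, which current naming of the particle relates to bacterial S1. Of 5 genes around the peptide exit tunnel, where the new protein leaves the particle, 4 were lower (median -0.049). These classes were chosen with earlier results of the data known, and 0 genes passed the threshold in any of them (edgeR, all genes 0.0212%).

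**Figure D4:**
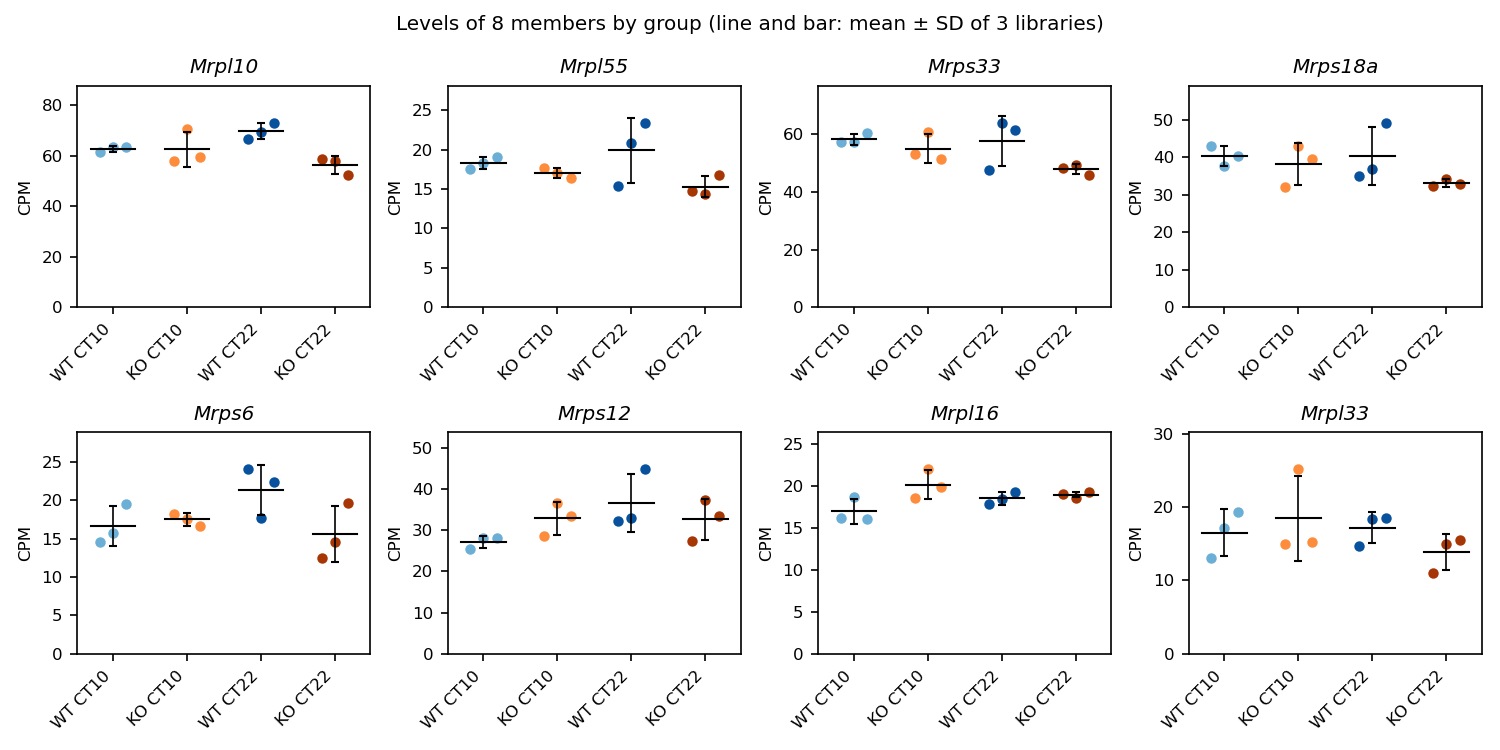
CPM of 8 named members in each library by group, with mean ± SD of 3 libraries in black and axes from 0. KO CT22 libraries lie below all WT CT22 libraries for Mrpl10 and Mrps18a, and for the other 6 the genotypes overlap at CT22.

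The KO effect was then taken at each CT label. At CT10, 0 of 76 members passed the edgeR threshold (all genes 0.00708%) or an unadjusted p under 0.05 (all genes 3.09%), and DESeq2 called 0. There 47 members were higher in KO and 29 lower, with a median log2 change of 0.031 against 0.0045 for all genes. The estimates ran from -0.26 ± 0.18 for Mrpl21, -0.21 ± 0.21 for Mrpl14 and -0.17 ± 0.16 for Mrpl32 to 0.19 ± 0.10 for Mrpl37, 0.24 ± 0.11 for Mrpl16 and 0.27 ± 0.15 for Mrps12. The groups did not overlap for 1 member higher in KO (Mrps12, 1.32% of the members and 4.90% of all genes) and 1 lower (Mrpl53, 1.32% and 5.43%). The sign of the median rested on KO CT10 replicate 2, without which it was -0.061.

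At CT22 the members leaned to lower values in KO. The estimate was lower for 67 of 76 and higher for 9, with a median log2 change of -0.15 against 0.0036 for all genes, of which 49.4% were lower. No member passed the threshold (edgeR, 0 of 76, all genes 0.0142%, DESeq2 0 of 76). At an unadjusted p under 0.05 there were 8 members, 10.5%, near the 10.9% of all genes. All 3 KO libraries lay below all 3 WT libraries for 9 members (11.8%, all genes 6.49%): Mrpl1, Mrpl10, Mrpl18, Mrpl27, Mrpl36, Mrps15, Mrps18a, Mrps22 and Mrps27. They lay above for 0 members (all genes 7.25%). The smallest edgeR adjusted p was 0.39, for Mrpl10, with a log2 change of -0.31 ± 0.092. Mrpl27, the relative of bacterial L27, had 32.6, 38.5 and 38.0 CPM in WT and 29.6, 30.9 and 29.4 CPM in KO, a log2 change of -0.28 ± 0.11 (edgeR adjusted p = 0.41). Mrps27, an RNA-binding pentatricopeptide protein, had 30.7, 26.9 and 30.7 CPM in WT and 22.9, 25.8 and 24.5 CPM in KO, a log2 change of -0.28 ± 0.12 (edgeR adjusted p = 0.42). In both genes the groups were apart, with the nearest libraries under 2 CPM from each other.

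The lowest estimates at CT22 were not among those 9 members. Mrps6 had 24.0, 17.7 and 22.4 CPM in WT and 12.5, 14.6 and 19.7 CPM in KO, with KO replicate 3 above WT replicate 2. Its log2 change was -0.45 ± 0.17 (edgeR adjusted p = 0.41). Mrpl55 had -0.37 ± 0.14 (edgeR adjusted p = 0.41) and Mrpl33 -0.33 ± 0.21 (edgeR adjusted p = 0.57). Mrpl47, a protein near the exit tunnel, had 0.052 ± 0.16, Mrpl44 0.082 ± 0.11 and Mrpl40 0.084 ± 0.12. Without WT CT22 replicate 3 the members' median at CT22 was -0.073. With the length difference as a covariate it was 0.055, and 28 members were lower and 48 higher. Other genes of at most 1200 bases had a median of -0.14 at CT22 and other genes over 5000 bases one of 0.17, both without the covariate. Without the 2 KO libraries whose clock genes went against their labels, 57 members were lower and the median was -0.12. Marker genes of glia were also read at CT22, where none passed the edgeR threshold (all genes 0.0142%). The KO estimate was lower for 8 of 9 microglia markers (median -0.23), all 8 oligodendrocyte markers (median -0.29) and 6 of 10 astrocyte markers (median -0.029). Summed microglia markers ran from 489.5 to 574 CPM in WT CT22 and from 443 to 474 CPM in KO CT22, without overlap. Summed astrocyte markers overlapped, with 5352 to 6154 CPM in WT and 5728 to 6547 CPM in KO. For the oligodendrocyte markers the mean deviation was -0.11, 0.19 and 0.24 in the WT CT22 libraries and -0.80, 0.11 and 0.060 in the KO CT22 libraries, so only KO CT22 replicate 1 lay below all WT libraries. The 13 hippocampal neuron markers summed to 7466 to 8911 CPM in WT CT22 and 6715 to 9923 in KO CT22. At CT10 they summed to 8939 to 9679 CPM in WT and 8316 to 8473 in KO, without overlap. Their mean deviations at CT10 overlapped, from -0.012 to 0.12 in WT and 4.0e-05 to 0.055 in KO. Over both CT labels Fibcd1 had -0.36 ± 0.13, Spink8 -0.37 ± 0.16, Gad1 0.13 ± 0.069 and Prox1 0.38 ± 0.23. No neuron marker passed the edgeR threshold there. None of the glial or neuronal markers was at 0 in any library, and their part in the members' values was not tested.

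Over both CT labels, KO libraries lay beyond the WT libraries at CT10 and again at CT22 in the same direction for 0 of 76 members, whether higher (all genes 0.361%) or lower (all genes 0.446%). The difference of the KO effect between CT22 and CT10, tested as an interaction, passed the threshold for 0 of 76 members and 0 genes in all (0%) in edgeR, and for 0 members in DESeq2. At an unadjusted p under 0.05 there were 5 members (6.58%, all genes 6.09%). The estimate was lower for 66 members and higher for 10, with a median of -0.16. It was lowest for Mrps6 (-0.53 ± 0.24), Mrpl46 (-0.49 ± 0.24) and Mrpl33 (-0.48 ± 0.30), and highest for Mrpl40 (0.19 ± 0.18), Mrpl47 (0.20 ± 0.23) and Mrpl21 (0.22 ± 0.25). Mrpl46 and Mrps11, which share a start region, had -0.49 ± 0.24 and -0.017 ± 0.19. Without KO CT10 replicate 2 and WT CT22 replicate 3, the highest libraries in the short against long difference and in the member score, the median was -0.000958, with 38 members on either side.

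**Figure D5:**
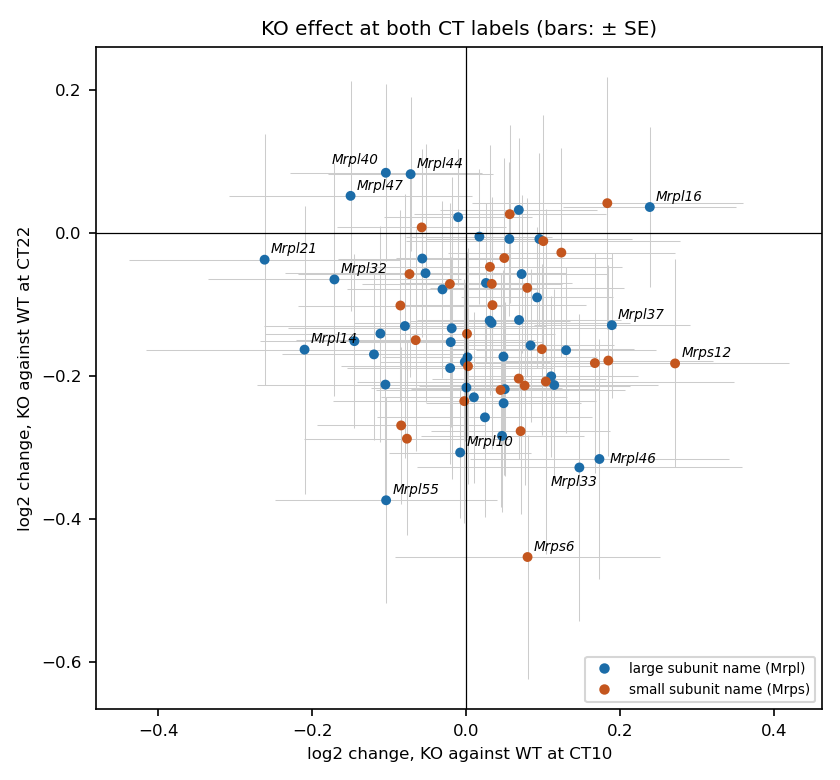
Log2 change of KO against WT for each member at CT10 (horizontal axis) and CT22 (vertical axis), with bars of ± SE and colour by subunit name. At CT22, 67 of 76 points lie below 0, while at CT10 47 lie above 0 and 29 below. No member passed the threshold on either axis.

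Between the CT labels, WT and KO members leaned in opposite directions. In WT, 56 members were higher at CT22 and 20 lower, with a median log2 change of 0.055 against -0.00010 for all genes. In KO, 14 were higher and 62 lower, with a median of -0.094 against 0.00028. No member passed the threshold in either genotype (edgeR, 0 of 76, all genes 0% in both, DESeq2 0 of 76). At an unadjusted p under 0.05 there were 6 members in WT (7.89%, all genes 6.76%) and 1 in KO (1.32%, all genes 3.16%). The median in WT was -0.0064 without WT CT22 replicate 3, and the median in KO was 0.0029 without KO CT10 replicate 2. With the length difference as a covariate the medians were -0.029 and 0.026. Clock genes, whose levels rise and fall over the day, placed a KO library of each CT label with the other label. Without these 2 libraries the median in KO was -0.080.

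In WT, Mrps12 had 25.4, 28.0 and 28.1 CPM at CT10 and 32.2, 32.9 and 44.7 CPM at CT22. Its log2 change of 0.43 ± 0.15 was the highest of the members (edgeR adjusted p = 0.72). Every CT22 library was above every CT10 library, and WT CT22 replicate 3 was far above the other CT22 libraries. Mrps6 had 0.37 ± 0.17 and Mrps10, a relative of bacterial S10, 0.34 ± 0.13. The lowest were Mrpl47, with 10.7, 10.1 and 11.02 CPM at CT10 and 7.40, 7.90 and 9.53 CPM at CT22 (-0.35 ± 0.16), Mrpl44, whose protein is related to RNase III (-0.16 ± 0.11), and Mrpl21 (-0.14 ± 0.17). The CT groups of WT did not overlap for 8 members higher at CT22 (10.5%, all genes 7.69%), Mrpl10, Mrpl12, Mrpl23, Mrpl28, Mrpl38, Mrps10, Mrps12 and Mrps27, and for 3 lower (3.95%, all genes 8.54%), Mrpl3, Mrpl44 and Mrpl47. In KO they did not overlap for 0 members higher (all genes 4.30%) and 5 lower (6.58%, all genes 3.66%), Mrpl27, Mrpl36, Mrpl37, Mrps22 and Mrps33. The lowest KO estimates were those of Mrpl33 (-0.42 ± 0.22), Mrpl46 (-0.29 ± 0.17) and Mrps22 (-0.29 ± 0.14), and the highest those of Mrpl32 (0.088 ± 0.17), Mrpl40 (0.14 ± 0.13) and Mrpl14 (0.21 ± 0.21). WT and KO contrasts shared no library, and their difference is the interaction above.

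At the level of transcripts, 82 of 85 were tested, 0 passed the threshold (edgeR, all transcripts 0.0222%), and the smallest edgeR adjusted p was 0.85. Of the members, 7 had several transcripts, and in 6 of them a single transcript held most of the counts. Mrps10 was the exception. Its transcript of 1017 bases held 55.1 ± 8.15% of the gene's counts in WT (SD, n = 6) and 29.99 ± 26.0% in KO, and that of 1020 bases held 42.7 ± 7.91% and 64.6 ± 26.5%. In single libraries the share of the first ran from 0% to 67.8%. The edgeR adjusted p values of the 2 transcripts were 0.91 and 0.90. Reads are divided by estimation between transcripts that differ by so few bases, so these shares are uncertain.

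Other genes of mitochondrial translation were taken from lists chosen with earlier results of the data known. Of these lists, 0 genes passed the threshold in any of the 6 contrasts (edgeR), where at most 0.0212% of all genes did. The splits by sign below were not tested, and the shares of all genes lower are given with the members above. In KO against WT over both CT labels, 5 of 7 mitoribosomal protein genes under other symbols were lower, among them Aurkaip1 (-0.11 ± 0.077). Of 23 genes for ribosome assembly and rRNA modification, 14 were lower. Fastkd2, an RNA-binding protein of mitochondrial RNA granules, had -0.20 ± 0.082 (edgeR adjusted p = 0.72) and Gtpbp5, a GTPase of large subunit maturation, -0.21 ± 0.091 (edgeR adjusted p = 0.73). Of 15 translation factors and partners, 10 were lower, while Lrpprc, which stabilises mitochondrial mRNAs, had 0.13 ± 0.059. Of 19 mitochondrial aminoacyl-tRNA synthetases, which load tRNAs with amino acids, 11 were lower, with Wars2 at -0.23 ± 0.14. Of 11 genes for mitochondrial transcription and its nuclear regulators, 7 were higher. Nrf1 had 0.13 ± 0.077, Gabpb1, a subunit of GABP, 0.19 ± 0.12, Pprc1 -0.11 ± 0.074 and Polrmt -0.086 ± 0.068. At CT22 the counts were 6 of 7 lower under other symbols, 18 of 23 lower for assembly, 7 of 15 lower for translation factors, 13 of 19 lower for the synthetases and 8 of 11 higher for the regulators. Cytosolic ribosomal protein genes had medians of -0.11 over both labels and -0.21 at CT22, and oxidative phosphorylation genes -0.090 and -0.20.

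The authors' deposited table, which compares KO with WT, held all 76 members. There, in the authors' deposited table, the log2 ratio was below 0 for 65 members and above 0 for 11. An adjusted p under 0.05 was held by 0 members, and an unadjusted p under 0.05 by 2. The shares of all genes in the authors' deposited table are not given here, so these counts cannot be read as a result about the members. The smallest adjusted p in the authors' deposited table was 0.81, for Mrpl55, with a log2 ratio of -0.25.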

How the data were processed

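Polyadenylated RNA of 12 hippocampal libraries was prepared with a stranded kit, per the labels' protocols, which name single-end and paired-end reads without saying which library had which. The submitters' processing notes name build mm10 and the tools TopHat 1.3.3, RSEM 1.2.5, FastQC and edgeR 3.0.6. Per the file headers, the deposited library files hold estimated counts and TPM of 30383 transcripts. A table of KO against WT, also deposited, holds for each gene the log2 ratio of the authors with its p-value, raw and adjusted. The use of strand in counting is not stated, so genes that overlap others are uncertain.

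Estimated counts were summed per symbol, rounded and tested with edgeR 4.0.16 in R 4.3.3: filterByExpr (minimum count 10), TMM factors of 0.979 to 1.021, and a robust quasi-likelihood fit of 4 group means with 8 residual degrees of freedom and a biological coefficient of variation of 12.3%. P-values were adjusted by Benjamini-Hochberg over all 14131 genes (threshold 0.05), and errors of log2 changes are standard errors. Deviations used log2 CPM with a prior count of 2. Contrasts at CT10, at CT22 and over both share libraries. The lowest member count in any library was 37, in Mrpl47, and counting error is largest in KO CT22 replicate 2, the smallest library. Alternatives were other scalings, no filter, DESeq2 1.42.0, a replicate block, covariates, the main transcript per gene and leaving out libraries.

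Members, lists and tests were chosen with earlier results of these data known. Genes were named if past the threshold, among the highest or lowest in change or TPM (changes from a mean of 2 CPM), among the smallest p-values, in the stalk or S18 families, or, in other lists, among the 4 smallest p-values. Mrpl27, Mrps27, Mrps11, Mrpl39, Mrps2, Mrps28 and the members named because their groups did not overlap or because they stood against the rest in a library were named after their values were seen. Whether equal replicate numbers pair libraries is not given, and the main fit did not pair them. Of 18 same-number pairs, 4 had a correlation over 0.1, in a range from -0.24 to 0.33, which cannot decide it.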

Additional observations from a re-analysis of the deposited data

How the results depend on the processing

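No member passed the threshold in any of the 6 contrasts under any alternative run (edgeR or DESeq2). Transcripts were tested in KO against WT over both CT labels only, where none passed with 1 library left out or in the other alternatives run. With the replicate block the median log2 change of KO against WT over both CT labels was -0.054, that at CT22 was -0.14, no call changed, and Mrps18b turned to 0.000447. Leaving out 1 library at a time gave medians from -0.099 to -0.026 over both CT labels, -0.061 to 0.093 at CT10, -0.21 to -0.073 at CT22, -0.23 to -0.049 for the interaction, -0.0064 to 0.12 for WT and -0.15 to 0.0029 for KO between CT labels. The range crossed 0 at CT10 and, without WT CT22 replicate 3 or KO CT10 replicate 2, in WT and KO.

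Settings with the length difference were chosen after seeing the data. As a covariate it moved the medians to 0.055 at CT22, 0.044 for the interaction and 0.026 for CT22 against CT10 in KO. It also turned Mrps18b (0.12), Mrps18c (0.0062) and Mrpl11 (0.011) over both labels and Mrpl33 at CT22 (0.060). Without the 2 libraries of highest length difference the interaction median was -0.000958, Mrps31 was -0.010 and Mrps18b was 0.064 over both labels. The causes were not tested.

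Of 1059 alternative values of 45 named results, 18 changed sign and 0 passed the threshold. With 1 library left out, the log2 change over both labels ran from -0.021 to 0.097 for Mrps17, -0.0053 to 0.13 for Mrps12 and -0.068 to 0.11 for Mrps18b. At CT22 it ran from -0.057 to 0.17 for Mrpl47, and between CT labels in KO from -0.037 to 0.20 for Mrpl32. With 1 base of the NRF1 word free, 22.4% of members held it, against 7.03% of all genes. The part of depth in the errors was not tested. At CT22 the largest standard error of a log2 change was 0.24, for Mrps28, which had a mean of 7.84 CPM, and the interval reaching lowest was that of Mrps6, to -0.82.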
